A study of Mus musculus with 6 samples.

Results

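The genes described here are 10 members of the WNT pathway in the posterior tissue of mouse embryos. They are 5 targets of the pathway (Axin2, Lef1, Tcf7, Nkd1 and Dkk1) and 5 ligands and modulators (Rspo3, Wnt5a, Wnt5b, Sfrp1 and Sfrp2). They were chosen by symbol, from the platform's probe annotation or the description in the array files, and 12 of the 34967 gene probes on the array carried them, with 2 probes each for Lef1 and Sfrp1. Of these 12 probes 11 could be tested, for 9 of the 10 genes, and the exception was the single probe of Axin2.

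Tissue just behind the forelimb bud was taken at embryonic day E9.5 from 3 Fkbp8 mutants (samples a, b and c) and 3 wildtypes (samples d, e and f), with 1 single-colour CodeLink array per sample. All embryos came from crosses of heterozygous carriers. The labels give neither the strain nor the kind of mutation, and the label of mutant a speaks of embryos, so it may hold more than 1 embryo. The series asks, by its title, how Fkbp8 acts on cell death and dorsoventral patterning in the neural tube.

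WNT proteins are secreted signals that bind Frizzled receptors. In the canonical branch they keep beta-catenin from being degraded, and beta-catenin then works with transcription factors of the TCF/LEF family at target genes. Several targets are themselves feedback inhibitors, among them Axin2, Nkd1 and Dkk1. In the tail end of the embryo WNT signals maintain axial progenitors and presomitic mesoderm, and in the neural tube they come from the roof plate and act on dorsal progenitors.

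No WNT gene passed the test between mutants and wildtypes. All 6 probes of ligands and modulators were lower in mutants on average, by 0.16 to 0.79 on the log2 scale, and 3 of them (Wnt5a, Wnt5b and the dimmer Sfrp1 probe) had an unadjusted p under 0.05. Of the 5 tested probes of targets, 4 were higher on average and 1 was lower, with log2 fold changes between -0.035 and 0.21. Axin2, too dim to be tested, had a lower mean in mutants, and of 12 tested targets outside the members 9 were lower, so the targets as a whole had no common sign. In limma, fitted over all 21688 probes tested with Benjamini-Hochberg adjustment, 0 of 11 member probes passed an adjusted p of 0.05. Of all probes tested 0.12% passed (26), 0.0646% higher and 0.0553% lower in mutants. Those that passed include Fkbp8 itself and all 5 sex-linked genes tested (Xist, Ddx3y, Eif2s3y, Uty and Kdm5d). At an unadjusted p under 0.05 there were 3 of 11 member probes, 0 higher and 3 lower, beside 12.2% of all probes (2654), 6.43% higher and 5.81% lower. The groups did not overlap for 1 of 11 member probes, which was higher in mutants, beside 19.7% of all probes, 11.2% higher and 8.56% lower. Log2 fold changes below 0 were found for 7 of 11 member probes and 47.6% of all probes. The members were chosen with earlier results of these data known, so these counts beside all probes are only a description.

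Facts of the whole series bear on every value. A spot counts as above background where its scanner flag is good or saturated, and 20144 (mutant c) to 21612 (wildtype f) gene probes per array did. The probe of Fkbp8 reached this on all 3 wildtypes and on none of the 3 mutants, where it was at least 18.8-fold lower (limma adjusted p = 1.18e-07). Transcripts of the Y-linked Eif2s3y, Ddx3y and Uty were detected on all 3 mutant arrays and on none of the 3 wildtype arrays, and Xist, at 1 of its 2 probes, showed the reverse, so genotype and sex-linked expression cannot be told apart. In a dissected tissue, fewer cells of a type and less RNA per cell cannot be told apart either. All 8 markers of tailbud and presomitic mesoderm and all 6 measured markers of the dorsal neural tube were above background on all 3 wildtype arrays, as were 2 of 5 measured markers of visceral endoderm and yolk sac.

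The values below are log2 intensities after background correction and quantile normalization between arrays. Levels of different probes cannot be set against each other, so each probe is compared only with itself across arrays.

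The targets are taken first. Lef1 and Tcf7 encode TCF/LEF transcription factors, which bind a site built around the letters CAAAG. RefSeq promoter windows on GRCm38.p6 were at hand for 7 of the 10 members, and those of Rspo3, Wnt5a and Sfrp1 were not used here. The windows at the outermost start sites of Lef1 and Dkk1 are shown because these are the target genes in whose windows the core was found. Each holds the 250 bases before the start site, on the gene's strand (plus for Lef1, minus for Dkk1), and the capitals mark CAAAG or its reverse complement CTTTG.
Lef1, chr3:131110047-131110296: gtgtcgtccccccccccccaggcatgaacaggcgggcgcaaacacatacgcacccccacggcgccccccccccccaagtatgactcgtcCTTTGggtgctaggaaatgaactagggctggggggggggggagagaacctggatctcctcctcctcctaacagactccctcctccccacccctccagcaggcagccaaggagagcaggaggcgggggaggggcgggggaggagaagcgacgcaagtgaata
Dkk1, chr19:30549497-30549746: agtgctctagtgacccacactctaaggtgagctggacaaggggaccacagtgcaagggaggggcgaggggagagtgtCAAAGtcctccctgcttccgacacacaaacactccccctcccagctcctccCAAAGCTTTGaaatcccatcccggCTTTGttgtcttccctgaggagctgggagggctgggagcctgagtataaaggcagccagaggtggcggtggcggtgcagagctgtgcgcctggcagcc
The core, searched on both strands, was found in 48.6% of all 32851 windows of this length in the table. The Lef1 window shown held 1 match, beginning 161 bases before the start site, and of the 4 windows of Lef1 in the table all 4 held the core, with up to 3 matches. The single Dkk1 window held 4, beginning 173, 122, 117 and 98 bases before it, and 0.773% of all windows held 4 or more. That cutoff is the count of the Dkk1 window itself, so the share is only a description. The matches at 122 and 117 adjoin, as the core followed directly by its reverse complement, and were counted separately. Of the 7 members in the table, Lef1, Dkk1 and Wnt5b had the core in at least 1 window. These matches describe letters only, and binding was not measured.

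Lef1 was the member whose groups did not overlap. Its brighter probe (GE1515806) measured 11.52, 11.54 and 11.61 in mutants a, b and c and 11.41, 11.30 and 11.45 in wildtypes d, e and f. Every mutant therefore lay above every wildtype, by a narrow margin. The mutant mean was 11.56 ± 0.047 (SD, n = 3) and the wildtype mean 11.39 ± 0.076 (SD, n = 3), a 1.12-fold difference. This log2 fold change was 0.17 (SE 0.076, 95% confidence interval -0.0065 to 0.34), and it did not pass in limma (adjusted p = 0.421).

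The dimmer Lef1 probe (GE35680) did not repeat this separation. It measured 8.24, 8.25 and 8.46 in mutants a, b and c and 8.12, 8.31 and 8.42 in wildtypes d, e and f, and the groups overlapped, with mutant c the highest array and wildtype d the lowest. Its log2 fold change was 0.033 (SE 0.10, interval -0.20 to 0.27, limma adjusted p = 0.919). The sign of that estimate turned without mutant c and without wildtype d.

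Tcf7, the other TCF/LEF gene among the members, measured 8.34, 8.60 and 8.32 in mutants a, b and c and 8.41, 8.52 and 8.43 in wildtypes d, e and f (probe GE33773). Mutant b was the highest array and the other mutants the lowest ones. The estimate was -0.035 on the log2 scale (SE 0.094, interval -0.25 to 0.18), with a limma adjusted p of 0.905, and its sign turned when mutant a, mutant c or wildtype e was left out. Expressed as folds, the interval ran from 0.841-fold to 1.13-fold of the wildtype level.

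Nkd1 encodes naked cuticle, a feedback inhibitor that binds Dishevelled. Its probe (GE41774) measured 10.72, 10.69 and 10.68 in mutants a, b and c and 10.46, 10.79 and 10.47 in wildtypes d, e and f. The mutants were nearly alike (SD 0.018) and lay between wildtype e and the other wildtypes (SD 0.19). The log2 fold change of 0.12 (SE 0.10, interval -0.11 to 0.35) did not pass (limma adjusted p = 0.65). It was 0.23 without wildtype e (limma adjusted p = 0.511) and 0.19 with median centring, but 0.065 without wildtype d and 0.070 without wildtype f.

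Dkk1 encodes a secreted inhibitor that binds the co-receptors LRP5 and LRP6. Its probe (GE1481172) measured 7.41, 6.81 and 6.84 in mutants a, b and c and 6.87, 6.59 and 6.97 in wildtypes d, e and f. Mutant a alone stood above the rest, and the other mutants lay within the wildtype range. The estimated log2 fold change was 0.21 (SE 0.17, interval -0.17 to 0.59, limma adjusted p = 0.639), and it was 0.014 without mutant a and 0.10 without wildtype e. With floored background-subtracted values it was 0.39 and with the deposited values 0.40 (adjusted p = 0.669 and 0.666). On the scanner's scale of spot mean minus background median the mutants measured 113, 57.6 and 47.7 and the wildtypes 61.7, 39.4 and 70.0, so this probe lay close to a local background of 48 to 53.

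Axin2, the feedback scaffold of the beta-catenin destruction complex and the most widely used readout of canonical signalling, could not be tested. Its probe (GE36873) was above background on 2 of 3 wildtype arrays and 0 of 3 mutant arrays. The spot minus background intensities were 11.5, 24.9 and 28.4 in mutants a, b and c and 47.5, 46.3 and 21.2 in wildtypes d, e and f, over a local background of 50 to 56. On the log2 scale the values were 6.12, 6.35 and 6.52 in mutants a, b and c and 6.69, 6.69 and 6.30 in wildtypes d, e and f. Wildtype f lay among the mutants, so the groups overlapped.

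For a probe not above background in a group at most a bound of the fold can be given. On each mutant array the Axin2 value was raised, where it was lower, to the dimmest signal that still counted as above background, and the mean of these was set against the wildtype mean. By that rule the wildtype mean of Axin2 was 1.08-fold higher. This is no firm lower bound, because wildtype f was itself not above background and still entered that mean. In the fit without a filter on dim probes the log2 fold change of Axin2 was -0.23 (SE 0.13, limma adjusted p = 0.626), and the exact permutation test (two-sided, 3 against 3 arrays) gave p = 0.3. Axin2 lay at the limit of detection on these arrays, so neither a small difference nor a larger drop in mutants could be measured.

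**Figure D1:**
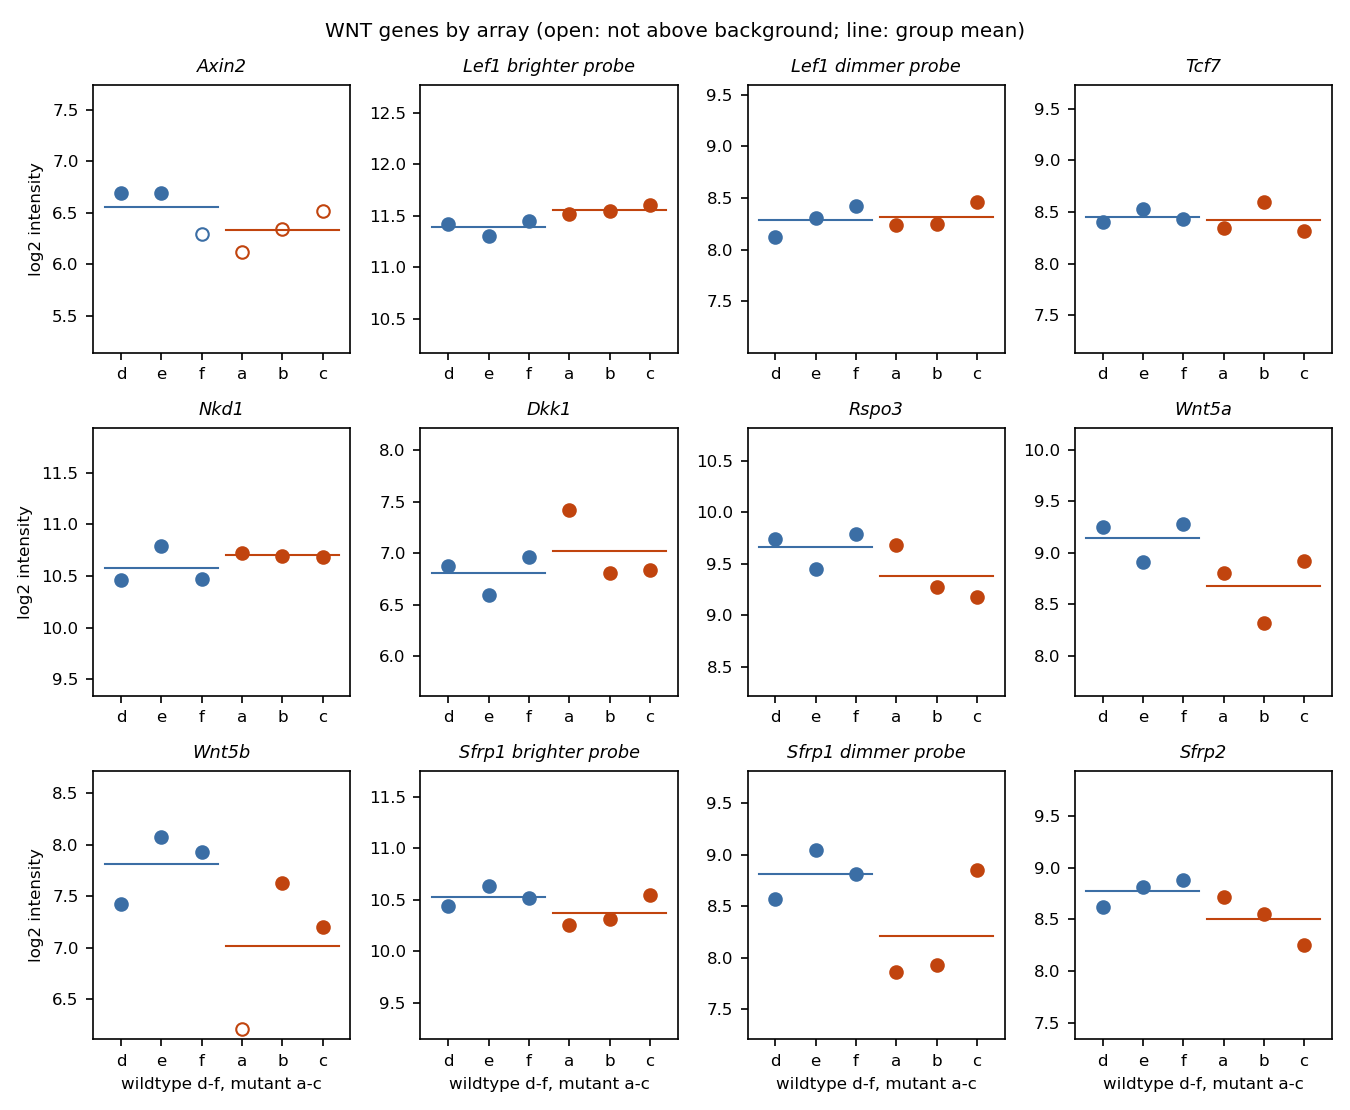
Log2 intensity (vertical axis, each panel spanning the same range) of the 12 member probes on each array (horizontal axis: wildtype d, e, f in blue, mutant a, b, c in red), with lines at the group means and open points where the probe was not above background. The Lef1 brighter probe is the panel in which the groups do not overlap, and in Wnt5b mutant a stands far below the other arrays at 6.22.

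The ligands and modulators were lower in mutants on average at each of their 6 probes. Wnt5a, a ligand known for the non-canonical branch and for outgrowth of the body axis and limbs, had the smallest unadjusted p of all members. Its probe (GE33902) measured 8.81, 8.32 and 8.92 in mutants a, b and c and 9.25, 8.91 and 9.28 in wildtypes d, e and f. Mutant c and wildtype e lay level with each other, and otherwise every mutant lay below every wildtype. The means were 8.68 ± 0.32 and 9.14 ± 0.20 (SD, n = 3 each), a 1.38-fold difference. Its log2 fold change was -0.46 (SE 0.16, interval -0.84 to -0.089), and it did not pass (limma unadjusted p = 0.021, adjusted p = 0.331). Over the alternatives it ran from -0.58 to -0.28 and passed in 0 of 16, and it was nearest to 0 without mutant b.

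Wnt5b, a close relative of Wnt5a, had the largest log2 fold change of the tested members and the widest interval. Its probe (GE33903) measured 6.22, 7.63 and 7.21 in mutants a, b and c and 7.43, 8.08 and 7.93 in wildtypes d, e and f. Mutant a was not above background, with a spot minus background intensity of 16.2, against 148 and 75.5 in the other mutants and 120, 219 and 195 in wildtypes d, e and f. Mutant b lay inside the wildtype range. The log2 fold change was -0.79 (SE 0.32, interval -1.53 to -0.057, limma adjusted p = 0.377). It was -0.39 without mutant a (SE 0.20, limma adjusted p = 0.448) and -1.09 without mutant b (adjusted p = 0.352), so its size depends on single mutants. It also depends on how background is handled, at -1.49 with floored background-subtracted values and -1.50 with the deposited values (adjusted p = 0.515 and 0.513). The local background of the spot was 46 to 55 over all arrays and 46 in mutant a.

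Rspo3 encodes an R-spondin, a secreted protein that raises WNT receptor levels through LGR receptors. Its probe (GE39752) measured 9.68, 9.28 and 9.18 in mutants a, b and c and 9.74, 9.45 and 9.78 in wildtypes d, e and f. Mutants b and c lay below all wildtypes and mutant a lay inside their range. For Rspo3 the log2 fold change was -0.28 (SE 0.14, interval -0.61 to 0.044, limma adjusted p = 0.466), and it was -0.43 without mutant a (adjusted p = 0.206) and -0.18 without mutant c (adjusted p = 0.623).

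Sfrp1 and Sfrp2 encode secreted Frizzled-related proteins, which bind WNT ligands outside the cell. The brighter Sfrp1 probe (GE103708) measured 10.25, 10.31 and 10.54 in mutants a, b and c and 10.44, 10.63 and 10.52 in wildtypes d, e and f. The dimmer Sfrp1 probe (GE36766) measured 7.86, 7.93 and 8.85 in mutants a, b and c and 8.57, 9.04 and 8.81 in wildtypes d, e and f. On both probes mutants a and b were the lowest arrays and mutant c lay inside the wildtype range.

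The probes of Sfrp1 had the same sign and differed in size. On the log2 scale the difference was -0.16 (SE 0.099, interval -0.38 to 0.065, limma adjusted p = 0.543) at the brighter probe and -0.60 (SE 0.25, interval -1.16 to -0.034, adjusted p = 0.382) at the dimmer one. Without mutant c these were -0.24 (SE 0.091, adjusted p = 0.331) and -0.92 (SE 0.14, adjusted p = 0.092), and the latter was the smallest adjusted p of any member under any alternative. Without mutant a they were -0.10 (adjusted p = 0.722) and -0.42 (adjusted p = 0.518). The brighter probe was also nearer to 0 without wildtype e (-0.11) and with median centring (-0.086). The array file describes the brighter probe only as a cDNA clone of unknown product, and its name comes from the platform annotation.

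Sfrp2 measured 8.72, 8.56 and 8.25 in mutants a, b and c and 8.62, 8.81 and 8.88 in wildtypes d, e and f (probe GE33632). Mutant c was the lowest array here, in contrast to Sfrp1, and mutant a lay inside the wildtype range. For Sfrp2 the log2 fold change was -0.27 (SE 0.13, interval -0.56 to 0.026, limma adjusted p = 0.444), and it was -0.14 without mutant c (adjusted p = 0.612).

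**Figure D2:**
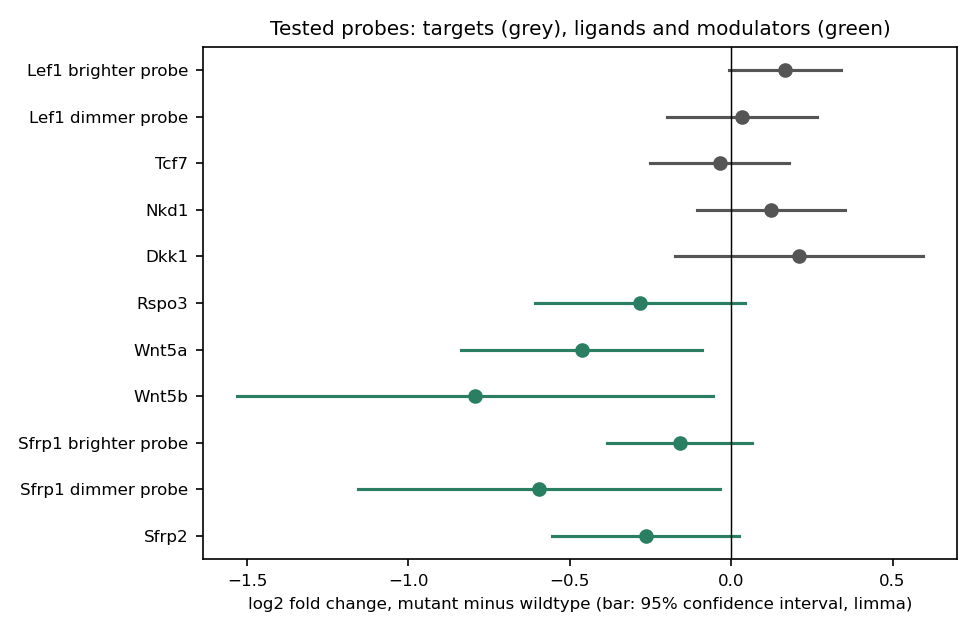
Log2 fold change, mutant minus wildtype (horizontal axis), of the 11 tested member probes (vertical axis), with points at the limma estimate and bars at its 95% confidence interval. Targets (grey) lie between -0.035 and 0.21, and ligands and modulators (green) lie between -0.79 and -0.16, with the widest bar at Wnt5b.

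Taken by role on 1 probe per gene, the brightest, the 5 ligands and modulators had a median log2 fold change of -0.28 and 5 of 5 were lower in mutants. The 4 tested targets had a median of 0.14, with 3 higher and 1 lower. Over all 13246 genes tested the median was 0.011, and 46.8% of genes were lower. The difference between the roles was not tested. The arrays that carried the lower values were not the same for each gene. Mutants a and b were lowest for Sfrp1, mutant a for Wnt5b, mutant b for Wnt5a, and mutant c for Rspo3 and Sfrp2.

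The direction at the ligand and modulator probes held in all alternatives in which they were tested. The median of the 5 genes ran from -0.39 to -0.22. The median of the targets ran from 0.064 (without mutant a) to 0.21 (median centring). A two-sided exact permutation test gave p = 0.1 for the brighter Lef1 probe, the smallest p that 3 against 3 arrays allow, and between 0.2 and 0.9 for the other tested member probes.

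Marker lists of cell types are given beside these values, since WNT genes are restricted to certain tissues. The mean log2 intensity of the 6 measured dorsal neural tube markers was 9.13 to 9.16 in mutants and 9.42 to 9.52 in wildtypes, without overlap, and 5 of the 6 were lower in mutants. The 4 neural progenitor markers averaged 8.29 to 8.56 in mutants and 8.91 to 8.94 in wildtypes, and 4 of 4 were lower, of which 1 passed the test. The tailbud and presomitic mesoderm list overlapped between groups, at 9.34 to 9.49 in mutants and 9.41 to 9.57 in wildtypes, with 5 of 8 genes lower. Both neural lists thus separated the groups, and the lists were not tested against each other. The dorsal neural tube list holds the ligands Wnt1 and Wnt3a themselves, and it shares Pax3 with the somite list. The tailbud list holds Wnt3a too. Its markers T, Tbx6, Msgn1, Cdx2, Fgf8 and Dll1 are also counted among the other target genes below. The tailbud list and those targets are therefore not separate observations.

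Other tissues overlapped between the groups. The somite and dermomyotome list averaged 9.57 to 9.90 in mutants and 9.47 to 9.73 in wildtypes, and the limb field and lateral plate list 8.23 to 8.44 and 8.30 to 8.41. In the latter list Hand2 was above background on no array. The 8 erythroid markers were all higher in mutants by their estimates, with list means of 12.10 to 12.29 in mutants and 11.81 to 12.26 in wildtypes. Only wildtype f (11.81) lay below the mutants, and wildtypes d (12.26) and e (12.16) lay inside the mutant range. The part of neural or erythroid cells in the WNT values was not tested.

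**Figure D3:**
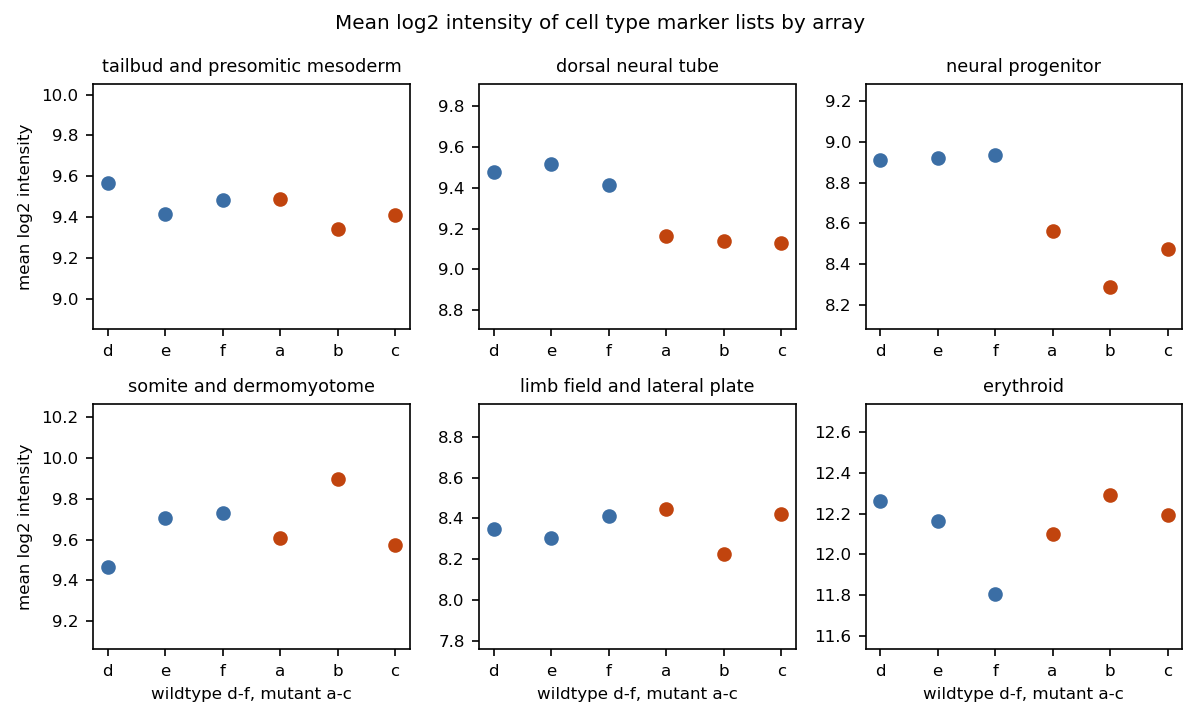
Mean log2 intensity (vertical axis) of 6 marker lists on each array (horizontal axis: wildtype d, e, f in blue, mutant a, b, c in red). The dorsal neural tube and neural progenitor means are lower in all 3 mutants than in all 3 wildtypes, and the other 4 lists overlap.

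The rest of the pathway was read from 6 further lists of 96 genes, of which 90 had a probe and 80 were tested. None of the 80 passed over all probes (limma, smallest adjusted p = 0.137), and on 1 probe per gene 12 had an unadjusted p under 0.05, 7 higher and 5 lower. The groups did not overlap at 24 of the 94 tested probes of these lists, beside 19.7% of all probes. The genes named below have the smallest p of their lists, so that non-overlap among them is no further evidence. Over all genes tested 7.36% were higher and 6.16% lower at that level, and 0.151% passed the adjusted p.

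Among the other WNT ligands and the proteins that make and secrete them, 12 of 16 tested genes were lower in mutants, with a median of -0.11 (-0.22 with floored and -0.21 with deposited values). Wnt3a, a canonical ligand of tailbud and roof plate, measured 8.64, 8.85 and 8.83 in mutants a, b and c and 9.22, 9.30 and 9.21 in wildtypes d, e and f. All mutants lay below all wildtypes, and its difference of -0.47 (SE 0.084) had the smallest p of the pathway but did not pass (adjusted p = 0.137). Wnt4 had lower mutant means at both of its probes, at -0.30 (SE 0.10, adjusted p = 0.319) and -0.20 (SE 0.079, adjusted p = 0.365). Wnt1, the other roof plate ligand named here, was at -0.18 (SE 0.073, adjusted p = 0.373). The groups did not overlap at any of these 4 probes, although mutant a and wildtype d were nearly level at the brighter Wnt4 probe.

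Among other target genes, 9 of 12 tested were lower in mutants, with a median of -0.077. It was -0.16 without mutant a and -0.13 without wildtype e, and -0.041 without wildtype d, -0.051 with the filter on all 6 arrays and -0.028 with median centring. Cdx1, a homeobox gene of the posterior body axis, had lower mutant means at both probes, at -0.51 (SE 0.098, adjusted p = 0.157) and -0.48 (SE 0.12, adjusted p = 0.239), and the groups did not overlap at either. The feedback inhibitor Nkd2 was at -0.20 (SE 0.086, adjusted p = 0.406) and the transcription factor Sp5 at -0.22 (SE 0.097, adjusted p = 0.413), both with overlapping groups. Nkd1 and Nkd2 therefore had estimates of opposite sign, and neither passed. The difference in sign between these targets and the members was not tested.

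Receptors lay nearer to 0 in the median (0.014, 8 of 14 tested genes higher), and that median turned to -0.0046 with cyclic loess and to -0.0088 without mutant c. Lrp6, a co-receptor of canonical signalling, measured 8.03, 8.37 and 8.34 in mutants a, b and c and 7.84, 7.83 and 7.85 in wildtypes d, e and f. The wildtypes were nearly alike and all mutants lay above them, 0.41 apart in the means (SE 0.10, adjusted p = 0.237). Ptk7, a receptor of planar cell polarity (0.35, SE 0.11, adjusted p = 0.288), and Fzd9 (0.25, SE 0.091, adjusted p = 0.344) were higher in every mutant as well.

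Cytoplasmic and nuclear transducers had 12 of 18 tested genes higher and a median of 0.070 (0.11 with median centring and 0.12 with deposited values). The destruction complex scaffold Axin1 was at 0.23 (SE 0.083, adjusted p = 0.331), and the Groucho co-repressor Tle3 at 0.24 (SE 0.076, adjusted p = 0.299), with no overlap between groups in either. The probes of the co-repressor Tle4 disagreed in sign, at 0.11 (SE 0.095) for the brighter and -0.40 (SE 0.14) for the dimmer one, and neither passed (adjusted p = 0.68 and 0.331).

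Regulators outside the cell and at the receptor showed smaller differences. Of 15 tested secreted antagonists and related inhibitors 9 were lower (median -0.028, turned to 0.014 without mutant b), and the smallest p belonged to Wif1 (0.17, SE 0.080, adjusted p = 0.437), Frzb (-0.21, SE 0.10, adjusted p = 0.442) and Sostdc1 (-0.16, SE 0.079, adjusted p = 0.455). Of 5 tested R-spondins, LGR receptors and E3 ligases 3 were lower (median -0.020). That median turned positive with median centring (0.0083), with the deposited values (0.015), without mutant a (0.074) and without wildtype e (0.019). The ligases Rnf43 and Znrf3, which remove Frizzled receptors from the membrane, were both 0.19 lower in the mean (-0.19, SE 0.084 and 0.086, adjusted p = 0.414 and 0.425). Lgr5, an R-spondin receptor, was at 0.10 (SE 0.090, adjusted p = 0.684).

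**Figure D4:**
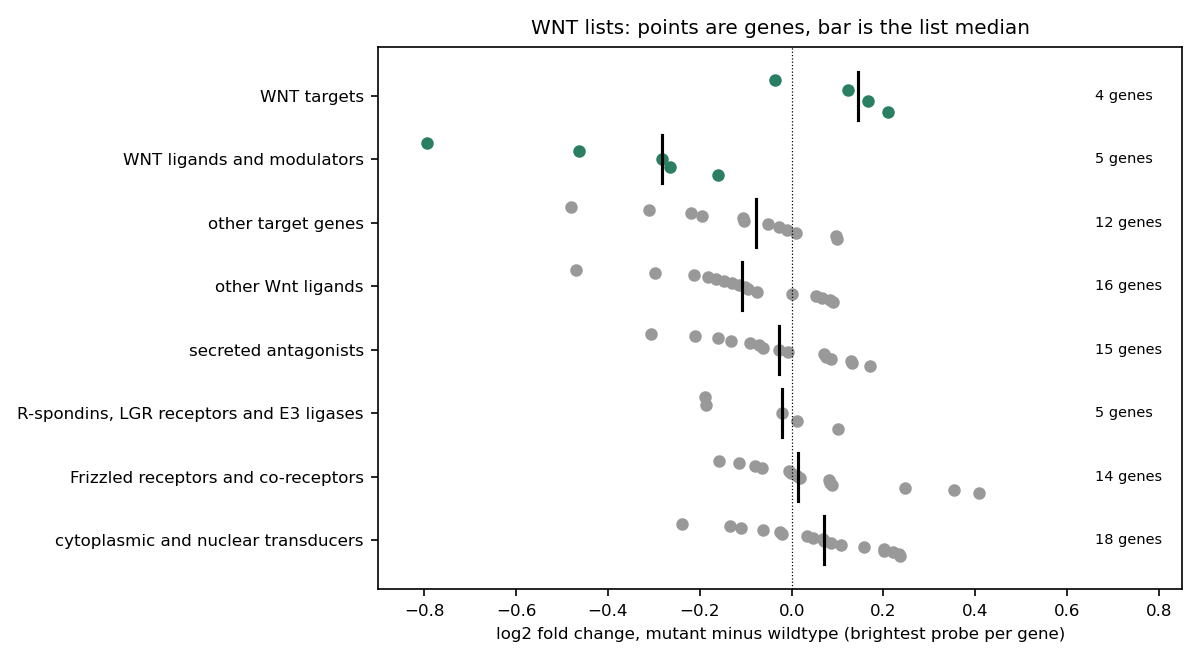
Log2 fold change, mutant minus wildtype (horizontal axis), of each tested WNT pathway gene at its brightest probe, by list (vertical axis), with the members in green, other genes in grey and a bar at the list median. The ligands and modulators have the lowest median (-0.28) and the member targets the highest (0.14), which without mutant a is 0.064 and below the transducers (0.088) and the R-spondin list (0.074).

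The genes whose values followed those of Wnt5a most closely over the 6 arrays, in the same or the opposite direction, were named by the absolute size of the Pearson correlation, as a description of these arrays, among 13005 probes with 1 gene symbol that were above background on all 6. Ndc80 (r = 0.997), Rtcb (r = 0.992) and Get1 (r = 0.991) ran in the same direction, and Vmn1r45 (r = -0.995) and Bcl2l2 (r = -0.992) in the opposite one. They are the most extreme of many correlations over few arrays, and no p is given. None of the 5 passed between the groups (smallest limma adjusted p = 0.331).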

How the data were processed

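Spots were quantified with CodeLink Expression Analysis 4.1.0.29054, per the file headers, and the deposited values are intensity: spot mean, background median, their difference, and that difference divided by 1 factor per array. The deposited series table equalled the last of these (largest difference 0). Background was corrected with normexp (offset 50), control spots were left out, masked, contaminated and irregular spots were treated as missing, and arrays were quantile-normalized on the log2 scale. Probes above background on at least 3 of 6 arrays, with 2 or more usable spots in each group, entered limma 3.58.1 in R 4.3.3 (lmFit, eBayes, two-sided). The call rule was a Benjamini-Hochberg adjusted p under 0.05, and the script was checked on simulated data. The offset of 50 makes the fold changes of dim probes smaller.

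Of 34967 gene probes 22259 received 1 symbol, 204 several and 12504 none, from the platform annotation, RefSeq accessions or the array file. The members and lists were chosen with earlier results of these data known. Named from each further list were genes that passed, and otherwise up to 3 with the smallest p. For the pattern most like a member, the 5 genes with the largest Pearson correlation in absolute size to the member of smallest p were named. Every sample had its own slide, so no slide block was fitted, and scan dates were not used here. Whether samples are single embryos is not fully settled, and nothing says that they come from separate litters. The limma p-values therefore rest on the spread within each group of 3 samples, moderated by the spread over all probes tested. They may not describe the spread among independent embryos, and the number of 6 samples limits the precision.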

Additional observations from a re-analysis of the deposited data

How the results depend on the processing

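Under each of the 16 alternatives 0 WNT member probes passed in limma (between 0 and 4 at an unadjusted p under 0.05), and the sign stayed the same at 9 of the 11 tested probes wherever they were tested. Tcf7 turned to 0.0035 without mutant a, 0.016 without mutant c and 0.0010 without wildtype e, and the dimmer Lef1 probe to -0.039 without mutant c and -0.047 without wildtype d. With each array left out in turn they ran from -0.12 to 0.016 and from -0.047 to 0.10. The median of the targets was 0.21 with median centring, 0.19 with the deposited values and 0.11 with the mean of a gene's probes, and 0.064 to 0.15 without each array in turn. The median of the ligands and modulators was -0.39 to -0.22 without each array. Over all probes, 26 passed as reported, 16 with median centring, 13 with floored values, 15 with the deposited values, 16 with the filter on all 6 arrays, and 11 (without mutant b, wildtype d or wildtype f) to 37 (without mutant a) with an array left out. The filter on all 6 arrays takes out Fkbp8, Eif2s3y, Ddx3y, Uty and Xist. These passed as reported and were above background in 1 group only. The causes of the other changes were not tested. Calls were 53.8% higher as reported, 43.8% with the filter on all 6 arrays and 43.2% without mutant a. Wnt5b was not tested with the filter on all 6 arrays. A slide block was not run, since each slide held 1 array, and scan days were not used here. No paired analysis was possible because the labels give mutants and wildtypes no shared replicate numbers. In the array headers, the sample names of wildtype d and mutant a share a leading number that no label explains, and it was not used. Axin2, Dkk1 and Wnt5b in mutant a lay close to background, which limits what can be seen for them.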
